A study of Saccharomyces cerevisiae with 21 samples.

Results

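Rap1-depleted budding yeast cells were compared with wild-type (WT) cells by nascent RNA-seq, in which the RNA bound to RNA polymerase II (Pol II) is purified and sequenced. The comparison rests on 6 of the 21 libraries of the series, 3 from each side, chosen by their group labels alone. The Rap1-depleted cells were of the RAP1-AID strain (rap1::RAP1-3V5-IAA7::KANMX6, with LEU2::pGPD1-osTIR, the auxin receptor under the GPD1 promoter) and received 3-IAA, an auxin, at 500 µM. Their control was the same strain with DMSO, the solvent (3 libraries). The WT cells were untreated and carried neither the degron nor osTIR (3 libraries). All 3 groups were derivatives of BY4741 (MATa, his3D1, leu2D0, met15D0, ura3D0) with rpb3::RPB3-3xFLAG::NATMX, the tagged Pol II subunit through which the RNA was pulled down. The other 12 libraries were of STH1-AID and RAP1-AID/STH1-AID cells. The difference between Rap1-depleted and WT cells, called the total departure here, thus holds several differences together. These are the tag on Rap1 with its KANMX6 marker, the osTIR gene with its LEU2 marker, the auxin treatment and the loss of Rap1. The control, set between the other groups, splits the total departure into a control step (control minus WT) and an auxin step (Rap1-depleted minus control). The control step holds the tag, osTIR, both markers and the DMSO, which the untreated WT cells did not receive.

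Rap1 is a general regulatory factor that binds DNA through a pair of Myb-type domains. It activates most ribosomal protein genes and many genes of glycolysis, and it also binds the repeats of telomeres, where it brings in the Sir proteins that silence the chromosome ends and the silent mating cassettes. In the auxin-inducible degron system, auxin joins the tagged protein to the plant F-box protein TIR1, and the protein is then ubiquitinated and degraded by the proteasome.

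The targeted gene was measured first. RAP1 (YNL216W) had 706, 615 and 795 CPM (counts scaled to a common library size with edgeR's TMM factor) in Rap1-depleted cells, against 636, 538 and 621 CPM in the control, and 363, 333 and 368 CPM in WT. The RAP1 transcript was higher in Rap1-depleted cells than in WT by 0.99 ± 0.11 on the log2 scale (adjusted p = 1.9e-07, edgeR quasi-likelihood test), and the groups did not overlap. The degron acts on the protein, so this RNA does not report the depletion. LEU2 had no counts in any library, although the osTIR construct is marked with it, and HIS3 and MET17, the gene also called MET15, had counts in every group. STE2 and the other genes that mark MATa cells were read in all groups.

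The libraries held 18289832 to 23182315 counts, with a median of 20675890. Pearson correlations between libraries of 1 group, over log2 CPM, lay between 0.990 and 0.994. RAP1-AID control replicate 2 stood high for ribosomal protein genes, with a median of 7.40 log2 CPM against 6.90 and 6.86 in the other 2 control libraries. Without it, the step between control and Rap1-depleted cells had 98 higher and 175 lower genes, against 90 and 183 with it. Nothing in these gene counts fixes the total output of Pol II, so every difference is relative to the rest of the transcriptome. The p-values rest on 3 libraries a group, which the study calls biological repeats.

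A DNA match was used to place the genes in sequence. The core of the site that Rap1 binds in many promoters, spelled CACCC, any 2 letters and ACA, was searched by exact letters on both strands of the 500 bases before each annotated gene start in the R64 genome (RefSeq). No other motif was searched. This core was present before 126 of the 5741 tested genes that have such a window (2.19%). It was present before 29 of 137 cytosolic ribosomal protein genes (21.2%). A match describes letters and does not show binding. The 8 stretches below, of 50 bases each, lie before genes whose values are given in the text, and all of them hold a match. They do not stand for all genes named. A match stood before 22 of the 99 ribosomal protein genes lower than WT (22.2%). Each is written 5′ to 3′ along the gene's own strand, with the match in capitals. A match on the opposite strand reads as TGT, any 2 letters and GGGTG.
ENO1: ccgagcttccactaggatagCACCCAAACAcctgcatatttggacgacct
PRO1: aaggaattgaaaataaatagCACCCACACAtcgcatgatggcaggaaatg
CMS1: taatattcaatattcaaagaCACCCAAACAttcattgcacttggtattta
NNR2: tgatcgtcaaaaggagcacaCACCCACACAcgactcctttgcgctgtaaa
RPS21B: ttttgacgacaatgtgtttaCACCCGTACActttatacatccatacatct
RPL40B: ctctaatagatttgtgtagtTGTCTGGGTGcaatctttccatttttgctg
RPS10A: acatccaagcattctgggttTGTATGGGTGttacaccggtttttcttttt
RPS23B: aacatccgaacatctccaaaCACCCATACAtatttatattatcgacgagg

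The stretches lie at chrVII:1000439-1000488 on the plus strand for ENO1, chrIV:1062939-1062988 on the minus strand for PRO1, chrXII:157843-157892 on the minus strand for CMS1 and chrXI:166086-166135 on the minus strand for NNR2. Those of the ribosomal protein genes lie at chrX:157587-157636 on the minus strand for RPS21B, chrXI:618964-619013 on the minus strand for RPL40B, chrXV:866738-866787 on the plus strand for RPS10A and chrXVI:794636-794685 on the plus strand for RPS23B. The match ended nearest to the annotated start in CMS1, at 132 bases, and farthest from it in ENO1, at 458 bases. The RPS10A stretch lies between RPS10A and YOR292C, and the RPS23B stretch between RPS23B and NAT3, which are read in the other direction.

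Rap1-depleted cells departed from WT at 790 of 5742 protein-coding genes tested (13.8%), called at an adjusted p below 0.05 with a log2 difference past 1. Of these, 477 were higher (8.31%) and 313 were lower (5.45%). Beyond a log2 difference of 2 stood 191 higher and 93 lower genes. The median absolute log2 difference over all genes tested was 0.32. The 3 Rap1-depleted libraries did not overlap the 3 WT libraries at 470 of the 477 higher genes and at 311 of the 313 lower genes, against 62.0% of all genes tested. The genes were called on these same libraries, so the lack of overlap follows largely from the selection and is no separate support. When libraries were scaled by their total count alone, the median of all genes shifted to 0.30 on the log2 scale and the calls became 746 higher and 211 lower, so that 78.0% of calls were higher, against 60.4% as reported.

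The control itself already departed from WT at 563 genes (9.80%), higher at 382 (6.65%) and lower at 181 (3.15%). The auxin step gave 273 calls (4.75%), 90 of them higher (1.57%) and 183 lower (3.19%). In the whole-transcriptome distance of each library from the WT libraries (root mean square of log2 CPM differences), Rap1-depleted cells stood at 0.888, 0.936 and 0.881. The control stood at 0.758, 0.809 and 0.775, and the WT libraries stood at 0.336, 0.333 and 0.347 from each other. All Rap1-depleted libraries were thus farther from WT than all control libraries, by 0.121 on average. An exact permutation test, two-sided, gave p = 0.1, which is the smallest that 3 libraries against 3 allow. With same-numbered libraries paired, sign flips within the 3 pairs gave an exact permutation p of 0.25, again the smallest possible.

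**Figure D1:**
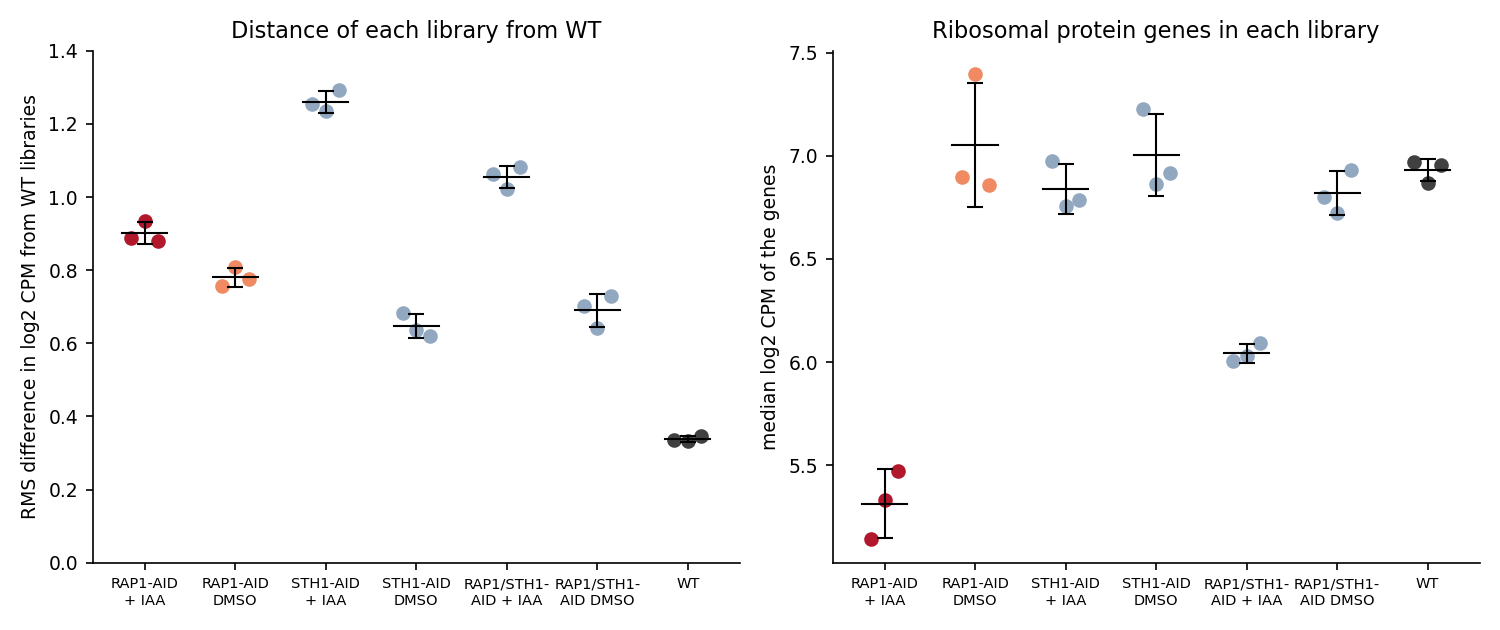
Whole-transcriptome distance from WT (root mean square of log2 CPM differences) and median log2 CPM of the cytosolic ribosomal protein genes, with 1 point per library, a bar at each group mean and whiskers of 1 SD, for all 7 groups. Rap1-depleted libraries lie at 0.881 to 0.936 in distance and at 5.14 to 5.47 log2 CPM in the ribosomal median, where the WT libraries lie at 6.87 to 6.97.

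Each gene was then placed by its 2 steps, a step counting when its adjusted p was below 0.05 and its log2 size past 0.5. Auxin moved 105 genes further from WT (1.83% of genes tested), 52 of them above WT and 53 below. It moved 137 genes back towards WT (2.39%), 44 from above and 93 from below. It carried 10 genes past WT to the other side by at least the size of their control step (0.174%). Genes that crossed WT by less are counted as moved back. A further 396 genes moved in the auxin step alone (6.90%) and 1120 in the control step alone (19.5%). Both steps use the same 3 control libraries, so an error in them pushes a gene's 2 steps in opposite directions. The total departure does not use these libraries.

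The higher and the lower genes were divided differently among these classes. Of the 477 genes higher than WT, 344 (72.1%) moved in the control step alone, 41 in the auxin step alone and 52 in both steps away from WT. Of the 313 genes lower than WT, 133 (42.5%) moved in the auxin step alone, 103 (32.9%) in the control step alone and 53 in both. The median higher gene was 1.73 above WT on the log2 scale, with 1.44 in the control step and 0.29 in the auxin step. The median lower gene stood at -1.56, with -0.63 in the control step and -1.05 in the auxin step.

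**Figure D2:**
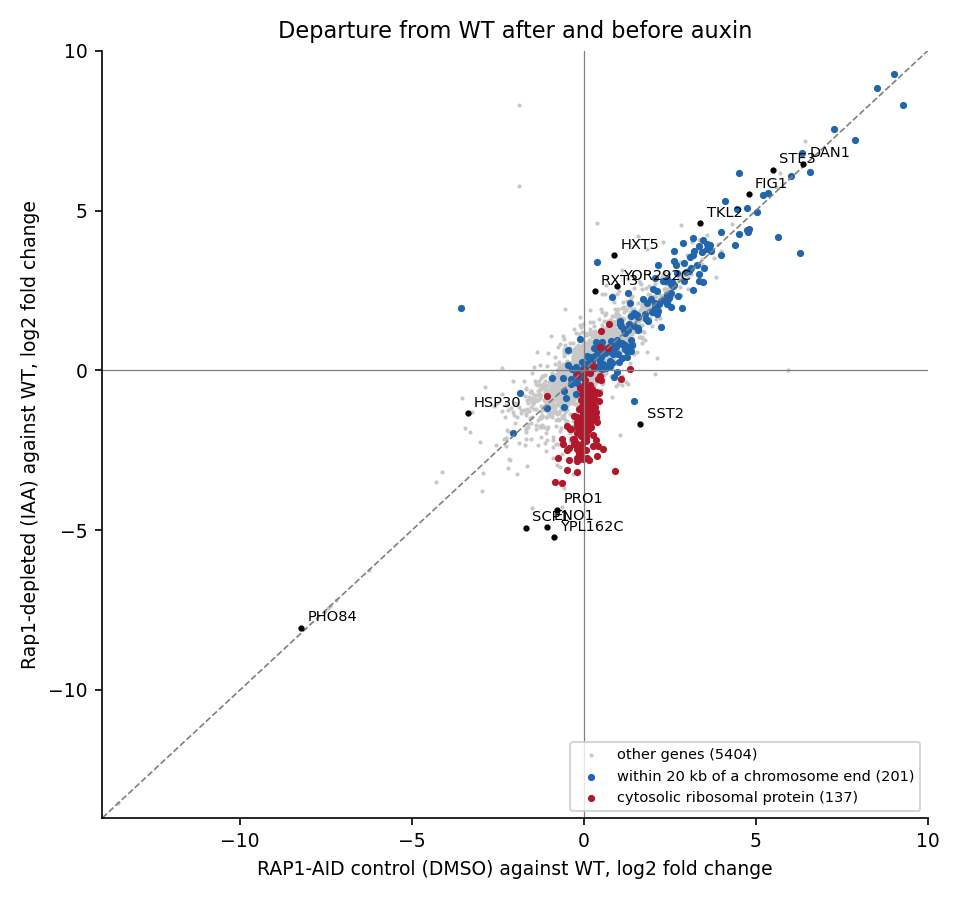
Total departure (Rap1-depleted minus WT, log2) against the control step (control minus WT, log2), with 1 point per protein-coding gene tested. Most of the 137 ribosomal protein genes (red) lie below the diagonal with control steps near 0, and the 201 chromosome-end genes (blue) mostly lie along the diagonal, where both departures are equal. Both axes use the same WT libraries.

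The Rap1 core letters were unevenly spread over these classes. They stood before 42 of the 313 lower genes (13.4%) and before 11 of the 477 higher genes (2.31%). Among lower genes they stood before 29 of the 133 of the auxin step alone (21.8%), 10 of the 53 moved further (18.9%) and 3 of the 103 of the control step alone (2.91%). Without the ribosomal protein genes, the lower genes of the auxin step alone or moved further held them in 17 of 88 cases (19.3%). Among higher genes they stood before 6 of the 41 of the auxin step alone (14.6%) and 2 of the 344 of the control step alone (0.581%). The share over all genes tested was 2.19%, and these shares are descriptions. A match between genes on opposite strands was counted for both. The matches before the higher genes UGO1, MNL1, YGK3, NAT3 and YOR292C are those before RPL27B, RPS4B, RPL25, RPS23B and RPS10A. That before the higher gene ZRG8 also lies before YER034W. Some matches were likewise counted for a pair of lower genes, such as RPL41B and SRF1. RPL41B was not called without WT replicate 2 (adjusted p = 0.22) or Rap1-depleted replicate 2 (adjusted p = 0.083) or 3 (adjusted p = 0.073).

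Cytosolic ribosomal protein genes made up 99 of the 313 lower genes (31.6%). They encode the proteins of both ribosomal subunits, and most of them exist as 2 paralogs. Of 137 tested, 99 were lower than WT (72.3%, against 5.45% of all genes tested), 2 were higher and 36 were not called. The median over the 137 genes was -1.50 in the total departure, 0.04 in the control step and -1.52 in the auxin step, where the same medians over all genes tested were -0.01, -0.01 and 0.01. In the auxin step 106 were lower and none was higher, and in the control step 1 was lower and 2 were higher. By library, the median ribosomal protein gene had 5.14, 5.33 and 5.47 log2 CPM in Rap1-depleted cells, against 6.90, 7.40 and 6.86 in the control, and 6.97, 6.87 and 6.95 in WT. The difference from WT of the library medians was -1.62 (two-sided exact permutation, p = 0.1, its lower limit here). Scaled by total count, 82 of these genes were lower than WT.

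Both subunits were lowered. Of the small subunit genes, 46 of 56 were lower (82.1%) and none was higher, with a median of -1.80. Of the large subunit genes, 53 of 81 were lower (65.4%) and 2 were higher, with a median of -1.36. RPL40B (YKR094C), a ubiquitin and large subunit protein fusion, had 9.01, 8.01 and 11.0 CPM in Rap1-depleted cells, against 49.5, 64.7 and 42.7 CPM in the control, and 52.9, 53.9 and 50.0 CPM in WT. It fell by 2.48 ± 0.14 on the log2 scale against WT (SE, adjusted p = 2.8e-11), and its control step was 0.00. All 3 Rap1-depleted libraries lay far below the other 6.

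RPS21B (YJL136C), a small subunit protein gene, had 4.70, 4.14 and 4.71 CPM in Rap1-depleted cells, against 30.7, 46.8 and 27.9 CPM in the control, and 29.1, 34.4 and 31.4 CPM in WT. Control and WT overlapped, and Rap1-depleted cells stood apart with a total departure of -2.81 ± 0.17 (adjusted p = 5.8e-11). RPS10A (YOR293W) had 30.1, 41.4 and 42.1 CPM in Rap1-depleted cells, against 76.0, 130 and 76.5 CPM in the control, and 124, 98.2 and 97.7 CPM in WT. Its total departure was -1.49 ± 0.17 (adjusted p = 6.7e-07). RPL43B (YJR094W-A) departed by -1.72 ± 0.19 (adjusted p = 4.5e-07), with 7.86, 6.98 and 6.02 CPM in Rap1-depleted cells, against 16.9, 26.6 and 16.8 CPM in the control, and 20.6, 24.1 and 23.8 CPM in WT. All 3 of these genes had every Rap1-depleted library below every control and WT library.

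Deeper falls were measured in RPS9B, RPL21B and RPL11B. RPS9B (YBR189W) had 24.4, 28.4 and 24.8 CPM in Rap1-depleted cells, against 178, 235 and 169 CPM in the control, and 294, 267 and 339 CPM in WT, a total departure of -3.54 ± 0.13 (adjusted p = 8.1e-14). RPL21B (YPL079W) stood at -3.51 and RPL11B (YGR085C) at -3.12. RPS9B and RPL21B moved in both steps, with control steps of -0.63 and -0.84, whereas 117 of the 137 genes moved in the auxin step alone.

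Paralogs of 1 ribosomal protein differed. RPS9A (YPL081W) had 27.8, 27.0 and 26.9 CPM in Rap1-depleted cells, against 71.3, 74.8 and 52.0 CPM in the control, and 25.9, 27.9 and 24.8 CPM in WT. It was higher than WT in the control (1.33) and fell by 1.28 in the auxin step, which left a total departure of 0.05, where RPS9B stood at -3.54. RPL7A fell by 2.29 against WT, while RPL7B rose in the control (1.07), fell by 1.34 in the auxin step, and stood at -0.27 against WT (adjusted p = 0.14). Without control replicate 2 the control step of RPL7B was 0.86 (adjusted p = 8.2e-05), within the log2 limit of 1. Paralogs share reads that RSEM divides by an estimate, so the division within a pair is less certain than its sum.

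Not all ribosomal protein genes were lowered. RPL3 (YOR063W), which the cell holds as a single gene, had 2677, 2816 and 2748 CPM in Rap1-depleted cells, against 3249, 3382 and 3097 CPM in the control, and 2866, 2567 and 3223 CPM in WT. Rap1-depleted and WT libraries overlapped, and the departure was -0.07 ± 0.12 (adjusted p = 0.62). RPL4B stood at 0.01 and RPL39 at 0.69, neither of them called. The Rap1 core letters stood before 22 of the 99 lowered genes (22.2%) and before 7 of the 38 others (18.4%).

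The 2 higher genes both encode acidic proteins of the ribosomal stalk. RPP1A (YDL081C) had 221, 263 and 273 CPM in Rap1-depleted cells, against 134, 164 and 161 CPM in the control, and 80.2, 95.4 and 100 CPM in WT. It rose in both steps, to a total departure of 1.46 ± 0.13 (adjusted p = 1.7e-08). RPP2B (YDR382W) had 270, 293 and 301 CPM in Rap1-depleted cells, against 159, 190 and 164 CPM in the control, and 109, 113 and 144 CPM in WT, a departure of 1.24 ± 0.12. Their stalk partners went the other way, with RPP0 at -1.15 and RPP1B at -1.43, and RPP2A stood at -0.69, within the log2 limit.

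**Figure D3:**
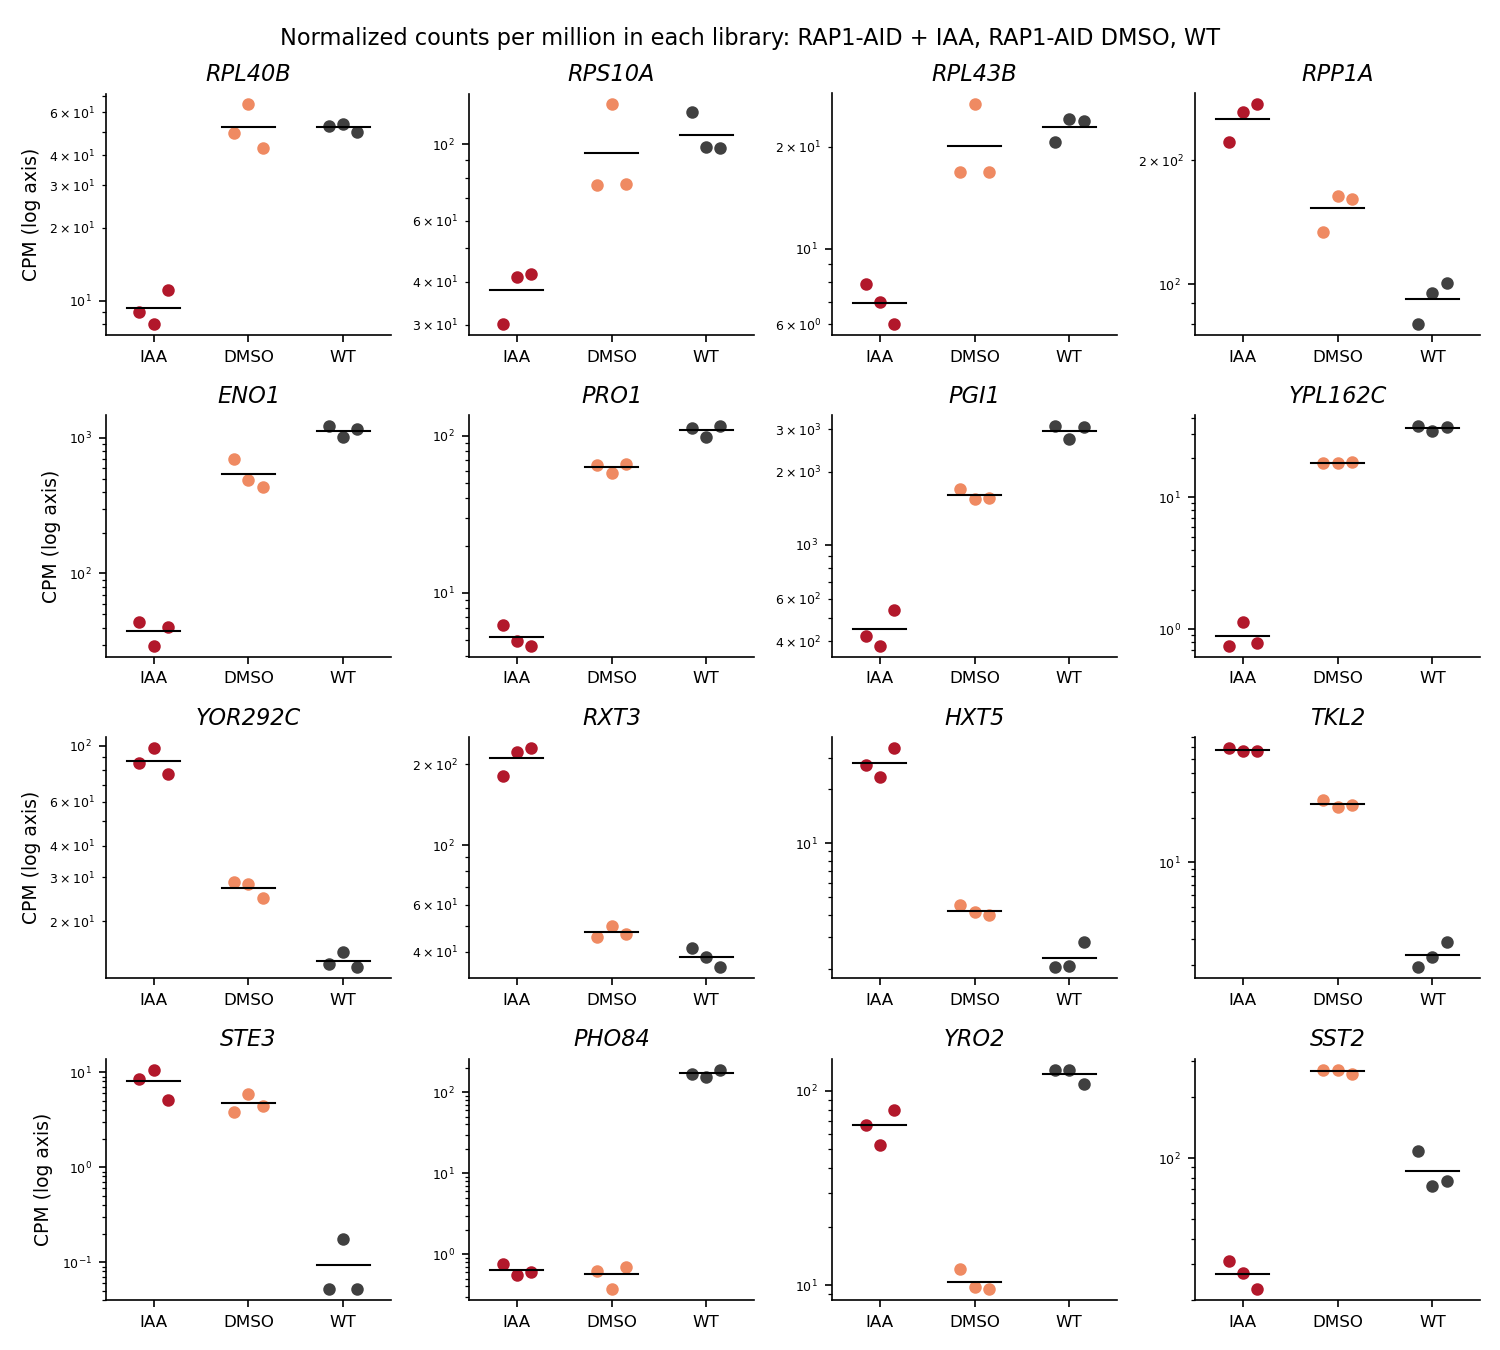
CPM on a log axis of selected genes in Rap1-depleted, control and WT cells, with 1 point per library. Bars are group means. RPL40B is low in Rap1-depleted cells alone, ENO1 is lower in each step, and RXT3 lies at 182 to 230 CPM in Rap1-depleted cells against 35.0 to 41.2 CPM in WT.

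Genes that start back to back with a ribosomal protein gene, within 1000 bases, were described next. Of 49 such neighbours, 46 were tested. Of these 14 were higher than WT (30.4%, against 8.31% of all genes tested) and 4 were lower, with a median of 0.51. With libraries scaled by total count, 22 were higher and 2 lower, with a median of 0.82. In that scaling 746 of all 5742 genes tested were higher and 211 lower, with a median of 0.30. In the control step 4 were higher (against 6.65% of all genes). In the auxin step 9 were higher and 2 lower (against 1.57% and 3.19%). RXT3 (YDL076C), a subunit of the Rpd3L histone deacetylase complex that is divergent to RPL31A, had 182, 222 and 230 CPM in Rap1-depleted cells, against 45.6, 50.1 and 46.5 CPM in the control, and 41.2, 38.2 and 35.0 CPM in WT. Its departure was 2.47 ± 0.09 (adjusted p = 6.6e-14), of which 2.16 came in the auxin step.

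YOR292C, divergent to RPS10A, had 85.2, 98.1 and 77.6 CPM in Rap1-depleted cells, against 28.7, 28.1 and 24.8 CPM in the control, and 13.5, 15.1 and 13.1 CPM in WT. The 3 groups did not overlap, and auxin moved the gene further from WT (control step 0.97, auxin step 1.68, total 2.64 ± 0.16, adjusted p = 5.1e-11). NAT3 (YPR131C), the catalytic subunit of the NatB acetyltransferase and divergent to RPS23B, had 67.9, 75.2 and 57.7 CPM in Rap1-depleted cells, against 19.1, 21.4 and 17.8 CPM in the control, and 19.8, 23.3 and 19.4 CPM in WT. It rose in the auxin step alone, to a departure of 1.68 ± 0.15 (adjusted p = 1.3e-08).

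Other higher neighbours were UGO1 (1.35), a mitochondrial fusion protein, SLX8 (1.21), a SUMO-targeted ubiquitin ligase subunit, ATG27 (1.17), an autophagy membrane protein, TEM1 (1.43), the GTPase of mitotic exit, and AAC3 (2.56), an ADP/ATP carrier. FYV12 lies 78 bases from RPS30B and had 27, 35 and 27 counts in Rap1-depleted cells, none in the 3 control libraries, and 1, 0 and 0 counts in WT. The lower neighbours included TSR1 (-1.21), an assembly factor of the small subunit, and SRF1 (-1.32). TSR1 stood at -0.91 and was not called when scaled by total count. TSR1 had 270, 241 and 267 CPM in Rap1-depleted cells, against 628, 517 and 614 CPM in the control, and 610, 604 and 590 CPM in WT.

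A match of the letters lay before both genes of 27 pairs on opposite strands, and 2 of these pairs held 2 matches each. In 4 pairs 1 gene was lower and the other higher, namely RPS10A and YOR292C, RPS23B and NAT3, RPS4B and MNL1, and RPL25 and YGK3. In 3 pairs both genes were lower, in none were both higher, in 5 pairs 1 gene was lower and the other not called, in 2 pairs 1 was higher and the other not called, and in 13 neither was called. RPS4B stood at -1.11 and MNL1, an alpha-mannosidase of protein quality control, at 1.24. RPL25 stood at -1.21 and YGK3, a glycogen synthase kinase, at 1.05. YGK3 lay close to the log2 limit, at 0.99 without Rap1-depleted replicate 2 and at 0.997 without WT replicate 3, where it was not called. RPS4B and RPL25 were not called when libraries were scaled by total count. RPL41B, of a pair with both genes lower, was not called without some single libraries, as given above.

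The largest falls outside the ribosomal protein genes were mostly made in 2 steps. ENO1 (YGR254W), an enolase of glycolysis, had 43.8, 29.4 and 40.3 CPM in Rap1-depleted cells, against 695, 489 and 433 CPM in the control, and 1213, 1008 and 1148 CPM in WT. Its departure was -4.89 ± 0.27 (adjusted p = 2.1e-11), of which -1.06 came in the control step and -3.83 in the auxin step. PRO1 (YDR300C), the first enzyme of proline synthesis, had 6.24, 4.97 and 4.62 CPM in Rap1-depleted cells, against 64.9, 58.1 and 66.4 CPM in the control, and 112, 98.4 and 115 CPM in WT. CMS1 (YLR003C), a putative factor of small subunit assembly, had 5.88, 5.96 and 4.41 CPM in Rap1-depleted cells, against 63.5, 71.4 and 69.5 CPM in the control, and 98.9, 104 and 113 CPM in WT. In all 3 genes the groups were fully separated, and PRO1 and CMS1 departed by -4.36 ± 0.12 and -4.28 ± 0.12 (adjusted p = 4.9e-16 each).

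NNR2 (YKL151C), a dehydratase that repairs NADHX, also fell in both steps but mostly in the control step. It had 3.63, 3.24 and 2.96 CPM in Rap1-depleted cells, against 6.25, 5.83 and 5.15 CPM in the control, and 44.1, 47.2 and 42.3 CPM in WT. YPL162C, a putative vacuolar membrane protein, had 0.750, 1.14 and 0.785 CPM in Rap1-depleted cells, against 18.2, 18.4 and 18.4 CPM in the control, and 34.6, 31.7 and 34.0 CPM in WT, a departure of -5.21 ± 0.13 (adjusted p = 1.4e-16). SCP1 (-4.92), an actin cross-linking protein, and HMS1 (-4.30), a putative transcription factor, were moved further in the same way. All of these were below the control in every Rap1-depleted library.

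PHO84 (YML123C), the high-affinity phosphate transporter, had the largest fall of the genes named by rule and did not follow this course. It had 0.750, 0.552 and 0.611 CPM in Rap1-depleted cells, against 0.629, 0.370 and 0.699 CPM in the control, and 169, 154 and 190 CPM in WT. Its departure of -8.05 ± 0.26 (adjusted p = 5.5e-15) was made in the control step (-8.21). SPL2, another gene of the phosphate regulon, stood at -3.19 and was also low in the control. Of 17 phosphate regulon genes tested, 2 were lower and 4 were higher (against 5.45% and 8.31% of all genes), the higher ones being PHO11 (2.67), PHO12 (1.37), GIT1 (2.07) and PHM7 (1.50).

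Glycolysis and alcoholic fermentation had 5 lower and 3 higher genes of 21 tested (against 5.45% and 8.31% of all genes), with a median of -0.49. PGI1 (YBR196C), phosphoglucose isomerase, had 421, 383 and 538 CPM in Rap1-depleted cells, against 1703, 1550 and 1561 CPM in the control, and 3091, 2733 and 3079 CPM in WT. It was moved further from WT by auxin, with a departure of -2.73 ± 0.15 (adjusted p = 1.3e-11). ADH1, the main fermentative alcohol dehydrogenase, had 1418, 1216 and 1244 CPM in Rap1-depleted cells, against 2752, 2554 and 2216 CPM in the control, and 4409, 3997 and 4680 CPM in WT (-1.75 ± 0.16). PGK1 stood at -1.80, and PFK1 lay at the log2 limit of 1. PFK1 was not called without Rap1-depleted replicate 1 (-0.99) or 2 (-0.87), without WT replicate 1 (-0.95) or 3 (-0.96), nor without any 1 of the control libraries.

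The 3 higher genes of this list encode minor isozymes. TDH1, a glyceraldehyde-3-phosphate dehydrogenase, had 171, 131 and 177 CPM in Rap1-depleted cells, against 67.6, 45.2 and 36.9 CPM in the control, and 86.0, 83.8 and 57.5 CPM in WT. Its departure of 1.08 ± 0.26 (adjusted p = 0.0017) was 0.92 and not called without WT replicate 3. PYK2, a pyruvate kinase, stood at 1.05 and PDC6, a pyruvate decarboxylase, at 1.52.

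Genes of translation outside the ribosome moved less. Of 50 ribosome biogenesis genes, 1 was called lower, NSR1 at -1.20, and none higher, but 38 were lower by the adjusted p alone (against 27.9% of all genes), with a median of -0.42. Scaled by total count, this median was -0.11, against 0.30 for all genes, and NSR1 was not called. NSR1, a nucleolar protein of pre-rRNA processing, had 523, 675 and 556 CPM in Rap1-depleted cells, against 1431, 1331 and 1435 CPM in the control, and 1344, 1258 and 1431 CPM in WT. TEF1 and TEF2, which encode the same elongation factor in nearly identical genes, stood at -0.88 and -1.01. TEF2 was not called without Rap1-depleted replicate 2 (-0.96), without WT replicate 1 (-0.996) or 3 (-0.95), or without any 1 of the control libraries (-0.998). Of 75 mitochondrial ribosomal protein genes 1 was lower, MRPL49 at -2.31, and none was higher (against 5.45% and 8.31% of all genes). Their median was -0.005, and 2 were lower without WT replicate 1.

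Amino acid genes were described in 3 lists. Of 12 leucine and branched-chain genes 4 were lower and 1 was higher, of 30 methionine and sulfate genes 4 were lower and 1 higher, and of 34 other amino acid genes 4 were lower and none higher, against 5.45% of all genes lower and 8.31% higher. Scaled by total count, these counts were 3 lower and 1 higher, 3 lower and 4 higher, and 3 lower and 1 higher. In that scaling 211 of all 5742 genes tested were lower and 746 higher. LEU1, isopropylmalate isomerase, had 223, 212 and 259 CPM in Rap1-depleted cells, against 279, 251 and 259 CPM in the control, and 970, 741 and 834 CPM in WT, and its departure of -1.87 ± 0.11 (adjusted p = 6.2e-11) was made in the control step. OAC1, the mitochondrial carrier of the leucine precursor, stood at -2.16 and was moved further by auxin. MET6, methionine synthase, had 60.2, 64.0 and 67.2 CPM in Rap1-depleted cells, against 147, 147 and 136 CPM in the control, and 212, 165 and 243 CPM in WT (-1.70 ± 0.14, moved further). All groups carry the leu2D0 and met15D0 alleles, whereas the LEU2 marker of osTIR is in the degron strains and not in WT, and its part in these results was not tested.

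The medians of these lists by step are drawn together. They show where each list moved, and the 2 steps share the control libraries.

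**Figure D4:**
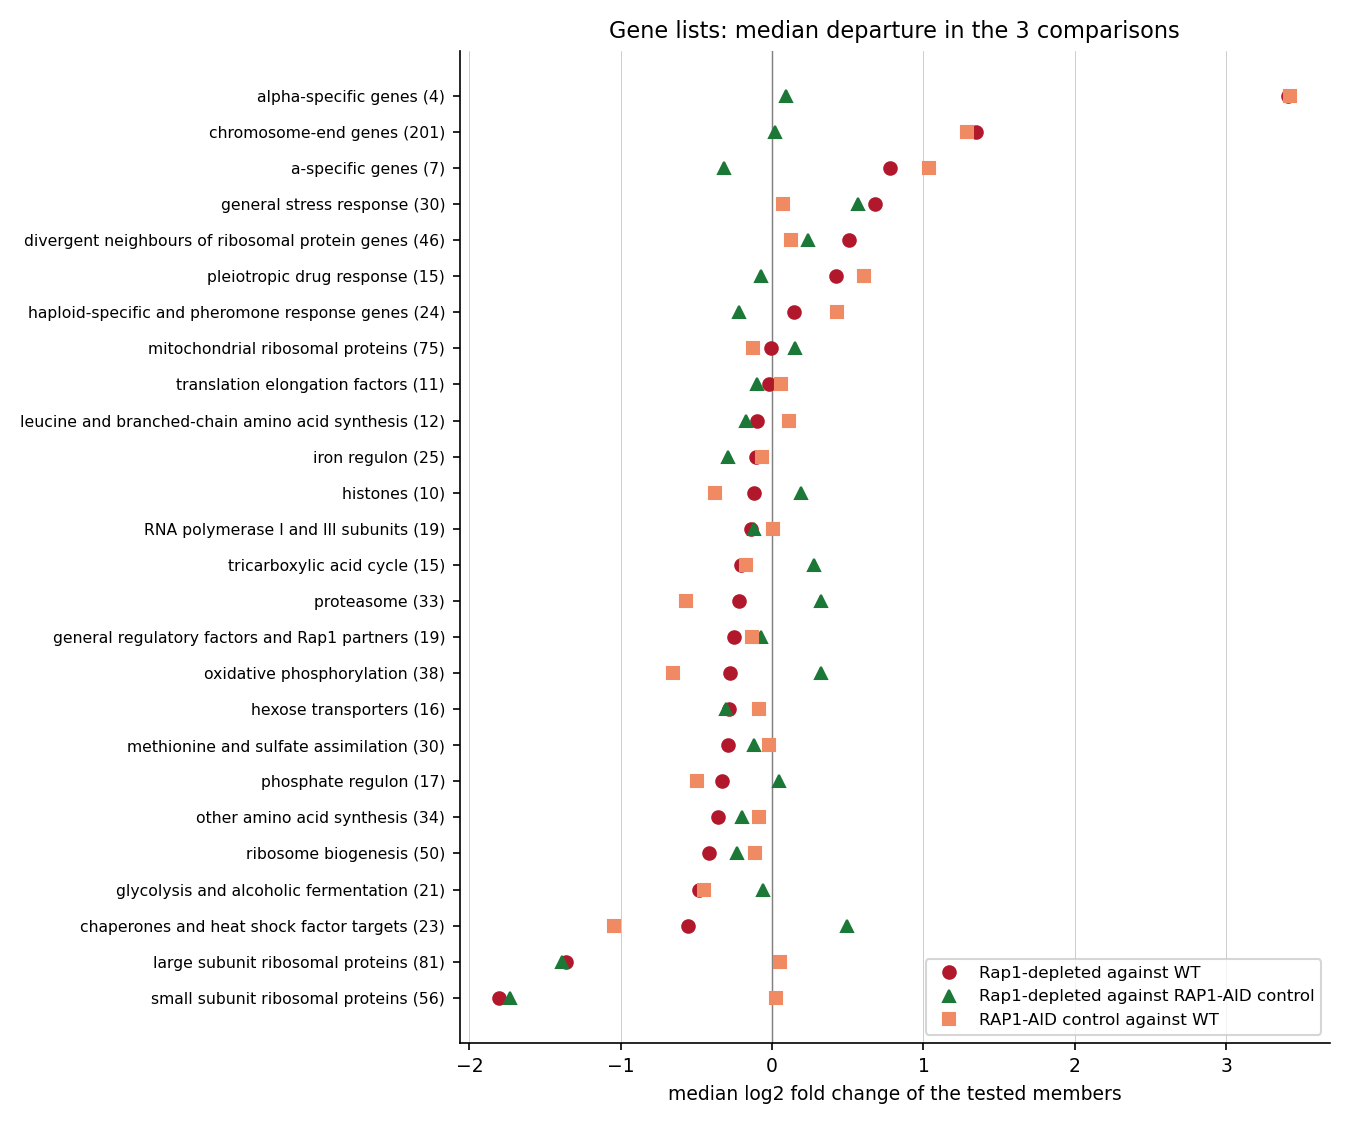
Median log2 difference of gene lists in the total departure, the control step and the auxin step, with 1 row per list and the number of tested genes in brackets. The ribosomal protein lists lie at -1.36 and -1.80 in total with control steps near 0, and the chromosome-end genes lie at 1.35 in total with an auxin step near 0.

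Of 30 genes of the general stress response tested, 11 were higher (against 8.31% of all genes) and 1 was lower, with a median of 0.68 in the total departure, 0.07 in the control step and 0.57 in the auxin step. In the auxin step 8 were higher (against 1.57% of all genes) and none was lower, and without control replicate 3 the higher ones numbered 4. HSP26, a small heat shock protein, had 21.7, 18.2 and 22.8 CPM in Rap1-depleted cells, against 7.72, 7.17 and 7.95 CPM in the control, and 6.31, 9.28 and 7.38 CPM in WT (1.44 ± 0.24, adjusted p = 6.2e-05). GSY1 (2.35), glycogen synthase, and GPH1 (1.50), glycogen phosphorylase, rose as well. HXT5, a hexose transporter of slow-growing cells, had 27.2, 23.2 and 33.9 CPM in Rap1-depleted cells, against 4.53, 4.16 and 3.97 CPM in the control, and 2.04, 2.07 and 2.81 CPM in WT (3.61 ± 0.20).

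Among genes moved further above WT, the largest departures included TKL2, ARO10, DIT1, SGA1 and THI13. TKL2 (YBR117C), a transketolase, had 59.4, 56.7 and 56.8 CPM in Rap1-depleted cells, against 26.3, 23.6 and 24.4 CPM in the control, and 1.93, 2.29 and 2.86 CPM in WT (4.61 ± 0.14, adjusted p = 2.4e-15). ARO10 (YDR380W), a decarboxylase of aromatic amino acid breakdown, had 128, 151 and 91.4 CPM in Rap1-depleted cells, against 37.3, 42.0 and 33.0 CPM in the control, and 4.49, 4.62 and 6.70 CPM in WT (4.55 ± 0.27). In both, the control lay between the other groups and nothing overlapped. SGA1, a glucoamylase of sporulating cells, had 18.8, 19.2 and 20.5 CPM in Rap1-depleted cells, against 2.77, 3.24 and 3.27 CPM in the control, and 1.20, 1.14 and 0.779 CPM in WT (4.21 ± 0.18). DIT1 stood at 4.24 and THI13, one of a set of near-identical paralogs, at 4.13.

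The 137 genes moved back were mostly genes that the control had below WT. Of the 93 moved back from below, 64 no longer passed the adjusted p against WT and 11 were still called lower. Their medians were -0.16 in the total departure, -0.96 in the control step and 0.75 in the auxin step. In RAP1-AID/STH1-AID cells with DMSO, which share no library with the RAP1-AID control, the same genes had a median of -0.88 against WT. The step from that control to RAP1-AID/STH1-AID cells with 3-IAA had a median of 0.77 at these genes. The WT libraries are shared by both control comparisons.

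YRO2 (YBR054W), a membrane protein of the stress response, had 67.2, 52.6 and 79.6 CPM in Rap1-depleted cells, against 12.1, 9.76 and 9.56 CPM in the control, and 128, 128 and 109 CPM in WT. Its control step was -3.54 and its auxin step 2.66, which left -0.88 ± 0.44 (adjusted p = 0.096). PHM8 (YER037W), a lysophosphatidic acid phosphatase, had 51.7, 39.7 and 47.5 CPM in Rap1-depleted cells, against 10.1, 9.39 and 7.90 CPM in the control, and 69.8, 76.3 and 53.3 CPM in WT (total -0.52 ± 0.33, adjusted p = 0.19). All Rap1-depleted libraries of YRO2 and PHM8 lay between the control and the WT libraries.

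HSP42 (YDR171W), a small heat shock protein, had 229, 119 and 172 CPM in Rap1-depleted cells, against 48.5, 30.6 and 15.3 CPM in the control, and 166, 225 and 102 CPM in WT. It varied widely within each group, and Rap1-depleted and WT libraries overlapped (0.07 ± 0.65, adjusted p = 0.93). HSP30, a plasma membrane heat shock protein, had 159, 71.7 and 224 CPM in Rap1-depleted cells, against 51.1, 30.6 and 27.7 CPM in the control, and 406, 413 and 323 CPM in WT. TPO2, a polyamine exporter, returned in part, with 708, 516 and 961 CPM in Rap1-depleted cells, against 200, 181 and 185 CPM in the control, and 1851, 1760 and 1799 CPM in WT (total -1.31 ± 0.45, adjusted p = 0.018). TPO2 was not called without Rap1-depleted replicate 1 (adjusted p = 0.052) or 2 (adjusted p = 0.083).

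Chaperone genes and targets of heat shock factor were low in the control and less so in Rap1-depleted cells. Of 23 tested, 5 were lower than WT in Rap1-depleted cells and none was higher (median -0.56, against 5.45% and 8.31% of all genes). In the control 12 were lower (median -1.05, against 3.15% of all genes). In the auxin step the median was 0.49 with 1 gene called higher (against 1.57% of all genes). With replicate number as a block, 3 genes were lower than WT and 3 were higher in the auxin step, HSP104 (-0.93) and FES1 (-0.96) having dropped out. Under scaling by total count, 2 were lower than WT, with a median of -0.25, and 4 were higher in the auxin step. Over all 5742 genes, this scaling gave 211 lower than WT, a median of 0.30, and 125 higher in the auxin step. Without single libraries, the count below WT ranged down to 2, reached without Rap1-depleted replicate 2. HSP78 (-2.13), a mitochondrial disaggregase, and BTN2 (-2.24), a sorting factor for misfolded proteins, were among the 5. HSP104, CUR1 and FES1, the other 3, were not called without Rap1-depleted replicate 2, with adjusted p-values of 0.12, 0.069 and 0.079. HSP104 was also not called without WT replicate 1 or 2, CUR1 without Rap1-depleted replicate 3, and FES1 without Rap1-depleted replicate 3, WT replicate 1 or 2, or any 1 of the control libraries.

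Of the 44 genes moved back from above, 24 no longer passed the adjusted p against WT and 6 were still called higher. Their medians were 0.12 in the total departure, 1.16 in the control step and -0.76 in the auxin step. In RAP1-AID/STH1-AID cells they had a median of 0.61 in the DMSO control against WT, and of 0.04 in the step from that control to 3-IAA. YNL018C had 2.05, 1.26 and 1.35 CPM in Rap1-depleted cells, against 7.51, 9.34 and 4.24 CPM in the control, and 2.45, 1.19 and 1.45 CPM in WT. ZNF1, a zinc cluster regulator of respiration, had 6.28, 7.22 and 8.02 CPM in Rap1-depleted cells, against 13.5, 14.5 and 17.9 CPM in the control, and 4.33, 5.76 and 8.15 CPM in WT. RPS9A, given above, belongs here. YHR214C-C, a retrotransposon gene whose copies share reads, had 456, 690 and 652 counts in Rap1-depleted cells, 2965, 3736 and 3642 counts in the control, and 116, 0 and 0 counts in WT.

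SST2 (YLR452C), the regulator that desensitises cells to pheromone, was carried past WT. It had 31.0, 27.0 and 22.5 CPM in Rap1-depleted cells, against 273, 272 and 260 CPM in the control, and 108, 72.9 and 77.0 CPM in WT. The control step was 1.64, the auxin step -3.32 and the total departure -1.68 ± 0.15 (adjusted p = 1.8e-08). FUS1 (YCL027W), a membrane protein of cell fusion at mating, had 18.4, 22.6 and 15.9 CPM in Rap1-depleted cells, against 30.0, 27.8 and 27.3 CPM in the control, and 6.68, 4.27 and 3.53 CPM in WT, and was moved back while still higher (1.98 ± 0.18). Of 24 haploid and pheromone response genes, 3 were higher and 2 were lower than WT, near the shares of all genes (8.31% and 5.45%).

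Of the 8 largest rises named by rule, 6 were made in the control step alone, YEL073C among them counting as moved further under a replicate block, and YIR042C, COS12, SNZ3 (5.09) and YEL073C (5.04) lay within 20 kb of a chromosome end. DAN1, a cell wall mannoprotein of anaerobic cells that lies farther in, had 4.50, 3.98 and 6.19 CPM in Rap1-depleted cells, against 4.57, 3.93 and 5.24 CPM in the control, and 0.0522, 0.0440 and 0.0519 CPM in WT (6.47 ± 0.75). YIR042C had 28.8, 31.8 and 23.6 CPM in Rap1-depleted cells, against 22.7, 27.2 and 22.7 CPM in the control, and 0.626, 0.440 and 0.727 CPM in WT (5.56 ± 0.22, adjusted p = 1.5e-13). COS12 (YGL263W), of the COS family of sorting proteins, had 25.8, 31.7 and 16.9 CPM in Rap1-depleted cells, against 24.2, 32.5 and 22.5 CPM in the control, and 0.626, 0.836 and 0.935 CPM in WT (4.94 ± 0.29). Rap1-depleted and control libraries overlapped in both genes, and WT stood alone. IMD2, an IMP dehydrogenase, had 262, 244 and 334 CPM in Rap1-depleted cells, against 391, 330 and 408 CPM in the control, and 15.3, 11.5 and 14.7 CPM in WT (4.34 ± 0.23).

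Of 257 genes within 20 kb of a chromosome end, 201 were tested. Of these, 101 were higher than WT in Rap1-depleted cells (50.2%, against 8.31% of all genes) and 3 were lower. In the control 110 were higher and 3 lower (against 6.65% and 3.15% of all genes). The auxin step had 5 higher and 3 lower (against 1.57% and 3.19% of all genes). Its counts were 3 higher without Rap1-depleted or control replicate 3 and 5 lower without Rap1-depleted replicate 2. The medians were 1.35 in the total departure, 1.29 in the control step and 0.02 in the auxin step. By class, 122 moved in the control step alone, 13 were moved back, 6 moved in the auxin step alone and 4 were moved further. The shares of all genes in these classes were 19.5%, 2.39%, 6.90% and 1.83%. These genes formed 21.2% of all higher genes.

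The departure declined inwards. Within 10 kb of an end, 55 of 90 genes were higher (61.1%), with a median of 1.97. From 10 to 20 kb, 46 of 111 were higher (41.4%, median 0.81). From 20 to 30 kb, 19 of 130 were higher (14.6%, median 0.36), and from 30 to 40 kb, 16 of 137 (11.7%, median 0.15). Farther in, 341 of 5260 were higher (6.48%), with a median of -0.03. The control had nearly the same medians, with 2.10 in the outermost 10 kb and 0.86 in the next.

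**Figure D5:**
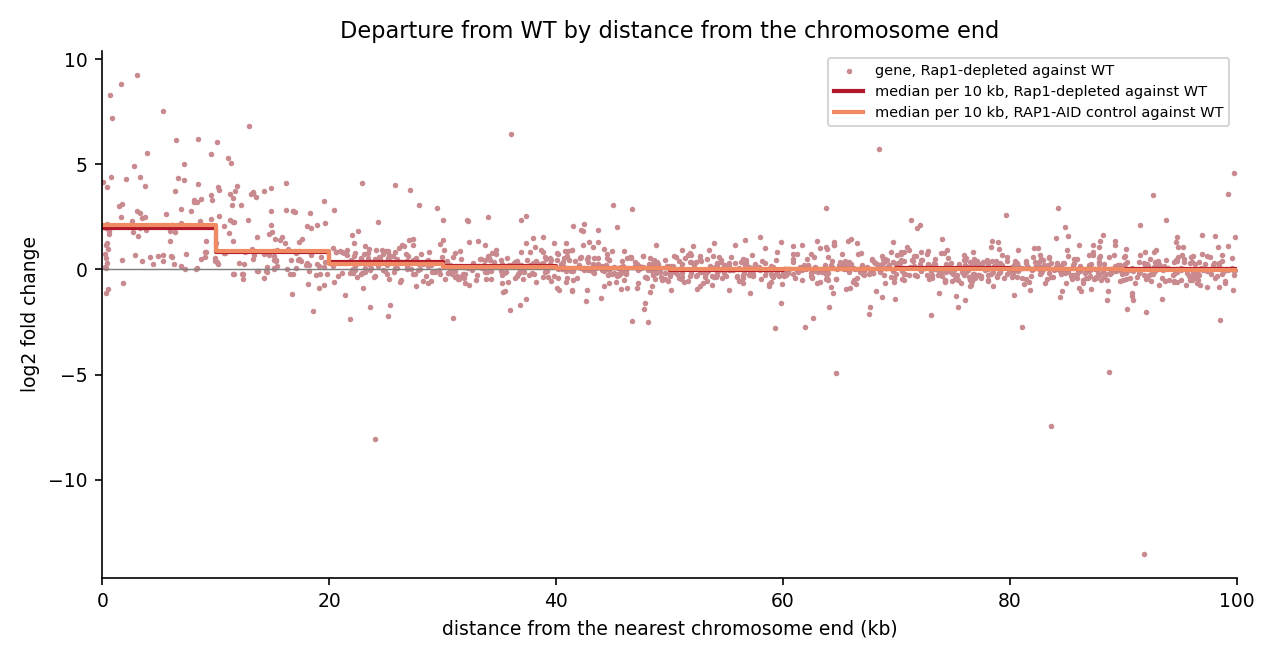
Log2 difference from WT against distance of the gene from the nearest chromosome end in kb, with 1 point per gene for Rap1-depleted cells and lines at the medians per 10 kb for Rap1-depleted cells and the control. The medians of Rap1-depleted cells fall to 0.81 in the second bin, against 1.97 within 10 kb of an end, and the control medians (0.86 and 2.10) lie close to them.

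ERR3, AAD15 and YFR057W, all within 20 kb of an end, had no counts in WT. ERR3, an enolase-related gene, had 99, 82 and 92 counts in Rap1-depleted cells, 73, 68 and 72 in the control and none in WT, which makes it at least 25.1-fold higher in Rap1-depleted cells, counting WT at 3 counts per library. AAD15 had 86, 70 and 48 counts in Rap1-depleted cells and none in WT (at least 18.6-fold). YFR057W had 59, 62 and 19 counts in Rap1-depleted cells, 73, 111 and 68 in the control and none in WT (at least 12.6-fold). RAP1-AID/STH1-AID cells with DMSO had 83 of the 201 genes higher than WT (against 3.90% of all genes), and STH1-AID cells with DMSO, which carry no tag on Rap1, had 48 (against 3.57% of all genes). The same WT libraries stand under all of these counts.

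The genes that mark cell type were checked in all 3 groups. The 7 a-specific genes summed to 813 to 1142 CPM in Rap1-depleted cells, against 1391 to 1434 CPM in the control, and 812 to 1119 CPM in WT, with none at 0. Of these, 3 were higher than WT (against 8.31% of all genes), AGA2 (1.76), ASG7 (1.51) and MFA2 (1.43). The 4 alpha-specific genes summed to 69.6 to 71.3 CPM in Rap1-depleted cells, against 61.4 to 62.8 CPM in the control, and 27.5 to 33.4 CPM in WT. MF(ALPHA)2, a gene of alpha-factor, was at 0 in all WT libraries. STE3 (YKL178C), the a-factor receptor of MATalpha cells, had 8.37, 10.6 and 5.15 CPM in Rap1-depleted cells, against 3.78, 5.92 and 4.45 CPM in the control, and 0.0522, 0.176 and 0.0519 CPM in WT (6.28 ± 0.50, adjusted p = 3.0e-09). MF(ALPHA)1 stood at 3.49, on few counts, and SAG1 at 1.02, or 0.95 and not called without WT replicate 3. In bulk cultures, more cells of a type and more RNA per cell cannot be told apart.

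The silent cassettes, which hold unexpressed copies of the mating type genes, showed no called difference as reported. Their 4 genes summed to 22.2 to 32.4 CPM in Rap1-depleted cells, against 21.4 to 31.3 CPM in the control, and 24.7 to 32.6 CPM in WT, and none of the 3 genes tested was called. HMRA2 stood at 0.75, but at 1.26 and called higher without WT replicate 2 (adjusted p = 0.00067), and at 1.05 and called when scaled by total count (adjusted p = 0.0041). HMLALPHA1 had no counts in any control or WT library and 2 counts in 1 Rap1-depleted library. As copies, the cassette genes share sequence with the expressed mating type locus, so reads from that locus can be counted here. These values therefore do not report silencing of the cassettes. The part of cells of another mating type in the rise of STE3 was not tested.

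Rap1-depleted cells were also set against Sth1-depleted cells (STH1-AID with 3-IAA), in which the ATPase of the RSC chromatin remodeller is the target, to see which features differ. They differed at 2145 of 5742 genes (37.4%), with Rap1-depleted cells higher at 1286 (22.4%) and lower at 859 (15.0%). Scaled by total count, these became 1984 and 467. Rap1-depleted libraries lay nearer to WT, at 0.902 ± 0.030 in distance against 1.26 ± 0.03 for Sth1-depleted libraries (SD, n = 3 each, two-sided exact permutation, p = 0.1). In this comparison 53 large subunit and 46 small subunit ribosomal protein genes were lower in Rap1-depleted cells and none was higher, with medians of -1.24 and -1.70. Chromosome-end genes were higher in Rap1-depleted cells in 88 cases and lower in 28.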

How the data were processed

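Gene-level nascent RNA-seq values of 21 libraries were analysed. The authors pulled down Pol II through Rpb3-3xFLAG, treated the degron strains with 3-IAA or DMSO for 2 h, trimmed the strand-specific reads with cutadapt 1.9.1 and quantified them with STAR 2.5.2a and RSEM 1.3.0 on the R64 genome with the Ensembl annotation. The deposited values are expected counts, estimated by RSEM without normalization between libraries and with shared reads divided between paralogs, and 7.82% to 9.25% of them per library were not whole. The deposited TPM values, which the authors' RSEM run scales by gene length, were not used. The authors' own comparisons used DESeq2 1.12.3.

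Expected counts were rounded and analysed with edgeR 4.0.16 in R 4.3.3, with TMM scaling, filterByExpr by group, 1 coefficient per group over all 21 libraries and 14 residual degrees of freedom. The quasi-likelihood test was adjusted by the Benjamini-Hochberg method over 5742 protein-coding genes of 6164 features kept, and 7126 features are listed. Gene names and positions came from RefSeq, matched by locus tag. The 500 bases before each annotated start were searched by exact letters. Errors are standard errors of the fit unless named SD. The calling of the total departure was tested on simulated counts, changed in Rap1-depleted cells alone. The placing of genes by their steps was not tested in this way.

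Replicate numbers came from the labels. Deviations of same-numbered Rap1-depleted and control libraries correlated at 0.200, 0.474 and 0.236, so these numbers pair the auxin step. Those of Rap1-depleted and WT libraries correlated at -0.112, -0.057 and 0.010 and do not pair them.

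Genes were named by rule: strain markers, the 8 largest increases and decreases against WT averaging 50 counts or more without overlap of the groups, the 5 largest further and back in each direction, the 3 smallest p of each list, and RPL43B, RPL40B, RPS10A, YOR292C and MLP1. MLP1 stood at -0.97 ± 0.13. Other names were chosen after their values were seen. The comparison, the lists and the rules were chosen with earlier results of these data known. Alternatives were other scalings, filters, thresholds, libraries and DESeq2 1.42.0. The spike-in, mRNA-seq and noncoding transcripts of the study were not analysed here.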

Additional observations from a re-analysis of the deposited data

Results flagged for a closer look

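Rap1-depleted and Sth1-depleted cells departed from WT in opposite directions at 5 of the named genes, and their difference passed the same edgeR quasi-likelihood test. Both departures use the same WT libraries, which the difference does not. YPL162C averaged 0.893 CPM in Rap1-depleted cells, 92.5 CPM in Sth1-depleted cells and 33.5 CPM in WT, a difference of -6.68 on the log2 scale (adjusted p = 1.6e-18). HMS1 averaged 0.544 CPM in Rap1-depleted cells, 30.2 CPM in Sth1-depleted cells and 10.6 CPM in WT, a difference of -5.81 (adjusted p = 5.7e-11).

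ARG1, argininosuccinate synthase, averaged 13.6 CPM in Rap1-depleted cells, 461 CPM in Sth1-depleted cells and 92.2 CPM in WT, a difference of -5.09 (adjusted p = 8.0e-13). SST2 averaged 26.8 CPM in Rap1-depleted cells, 262 CPM in Sth1-depleted cells and 85.9 CPM in WT, a difference of -3.28 (adjusted p = 3.9e-13). MET2, homoserine acetyltransferase, averaged 2.91 CPM in Rap1-depleted cells, 25.1 CPM in Sth1-depleted cells and 9.68 CPM in WT, a difference of -3.11 (adjusted p = 3.9e-13). In each of the 5 the Rap1-depleted libraries lay below WT and the Sth1-depleted libraries above it.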

How the results depend on the processing

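With DESeq2's size factors in edgeR the departure was 477 higher and 311 lower genes, and with DESeq2's Wald test 468 and 312. Scaling by total library size gave 746 higher genes, and 1984 higher and 467 lower genes against Sth1-depleted cells. Without a limit on the fold change 1584 genes were higher and 1604 lower. Without a limit on the step size 296 genes moved further and 426 back, and with steps beyond 1 these were 17 and 34. With replicate number as a block the counts were 477 higher, 314 lower, 114 further and 154 back, and among the gene lists the block moved by more than 1.5 times only the chaperone counts, to 3 lower than WT and 3 higher in the auxin step. It also changed the class of ARG1, STE3 and YEL073C to further, of FIT1, HSP104 and YFR057W to back, and of TDH1 to past. With single libraries left out, higher genes ranged over 461 to 492, lower genes 290 to 318, genes moved further 87 to 110 and genes moved back 110 to 169, both lowest without control replicate 3. The distance difference ranged over 0.104 to 0.136, the ribosomal median difference over -1.69 to -1.52, and the counts against Sth1-depleted cells over 1295 to 1345 higher and 818 to 859 lower. Only libraries of Rap1-depleted cells, their control and WT were left out, and no Sth1-depleted library was. Of these, only the Rap1-depleted libraries enter the comparison with Sth1-depleted cells, so its range says little about its stability. Of 2837 values of 203 named genes, 2752 kept their direction and side of the threshold, 66 were no longer called, 15 became called and 4 turned their direction. The 4 all turned under total library size, where the median of all genes moved to 0.30. They were HHF1 (0.006), SIR3 (0.010), SIR4 (0.001) and GCR2 (0.052), which stood between -0.31 and -0.25 as reported. The cause was not tested. Genes with few counts in WT, such as STE3, have a fold change set by 1 to 4 counts per library.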

Other observations

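Of 33 proteasome genes tested none passed the log2 limit, or 1 without Rap1-depleted replicate 2 or WT replicate 2. By the adjusted p alone 18 were lower in Rap1-depleted cells than in WT (median -0.22, against 27.9% of all genes), 30 were lower in the control than in WT (median -0.57, against 22.1%), and 24 were higher in Rap1-depleted cells than in the control (median 0.325, against 12.8%). The nuclear genes of oxidative phosphorylation had medians of -0.28 in Rap1-depleted cells and -0.66 in the control, both against WT, with 2 and 5 of 38 called lower (against 5.45% and 3.15% of all genes). These counts were 1 without Rap1-depleted replicate 2 and 3 without WT replicate 2. Scaled by total count, the medians in Rap1-depleted cells against WT changed sign, to 0.09 for the proteasome and 0.03 for oxidative phosphorylation. The median of all genes moved from -0.01 to 0.30 under this scaling, so both lists stayed below it. Of 16 hexose transporter and sensor genes 5 were lower than WT, with HXT4 at -1.77, HXT2 at -1.58 and HXT1 at -1.31, and 2 were higher (against 5.45% and 8.31% of all genes). Without WT replicate 3, or scaled by total count, 3 were lower. Of 15 pleiotropic drug response genes 3 were higher (against 8.31% of all genes), RSB1 (2.61), PDR18 (1.77) and PDR15 (1.63), and all 3 were as high in the control. Scaled by total count, 5 genes of this list were higher, and 746 of all 5742 genes tested. Histone genes and the subunits of RNA polymerases I and III had no called member (against 13.8% of all genes called).

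Of 80 Ty genes tested, 16 were higher and 2 lower than WT (against 8.31% and 5.45% of all genes), with reads divided between copies. Outside the protein-coding set, 412 features whose identifiers did not match a locus tag of the reference table were tested, and 114 were higher and 11 lower than WT (against 9.67% and 5.26% of all 6164 features). Of 10 genes matched but not listed there as protein-coding, among them FLO8 and CRS5, 5 were higher and none was lower.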
